A study of Homo sapiens with 6 samples.

Results

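UBE2 genes encode the ubiquitin-conjugating enzymes (E2 enzymes) and their close relatives, and 35 genes whose symbol begins with UBE2 were measured among 15953 genes in EJ, an established line of human bladder cancer cells. They were chosen by symbol alone, and the counts cover all 35. The RNA-seq comprised 6 libraries: 3 from stable STIL-knockdown cells, made by lentiviral transfer of a short hairpin RNA against STIL (shSTIL), and 3 from cells given the control construct (shNC). STIL is a centriole duplication protein, and the comparison asks which transcripts changed when it was depleted. The hairpin sequence and the number of clones behind each line were not given in the sources used here. Nothing states that the 3 libraries of a group came from separate cultures, so the p-values measure the spread between these libraries, which may be technical.

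Ubiquitin is first activated by an E1 enzyme, then passed to the catalytic cysteine of an E2, and then joined to a substrate with the help of an E3 ligase. The E2 often decides which kind of chain is built, and a chain of one linkage sends a protein to the proteasome while another recruits repair or signalling factors. Several family members carry ubiquitin-like proteins such as SUMO, NEDD8 or ISG15 instead. UBE2C and UBE2S serve the anaphase-promoting complex (APC/C), the E3 ligase that ends mitosis, and UBE2T serves the Fanconi anemia pathway, which repairs DNA crosslinks.

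The recovered depth was 16214771 to 16431241 reads in the shNC libraries and 16734468 to 16901633 reads in the shSTIL libraries. STIL was at log2 CPM (the log2 of reads adjusted for library size) of 5.98, 6.10 and 6.01 in shNC and 4.05, 4.06 and 4.01 in shSTIL. Its log2 fold change was -1.99 (standard error, SE, 0.052, and adjusted p = 6.1e-12 by limma). Of the epithelial markers, KRT5, TP63 and CDH1 were below 1 CPM, while KRT7, KRT8, KRT18 and CD44 were far above that level in every library. The epithelial list summed to 2069 to 2149 CPM in shNC and 1974 to 1991 CPM in shSTIL. Most of that sum was CD44 and KRT18, and its genes did not move together. At a limma adjusted p under 0.01, KRT8 was lower (log2 fold change -0.70), and KRT7 (0.49) and the scarce CDH3 (1.75) were higher. The rest of that list was not called. Of differentiated urothelium, UPK2, KRT20 and GATA3 were below 1 CPM, while PPARG, FOXA1 and ELF3 were above it in every library. All 5 mesenchymal markers searched were above 1 CPM, with sums of 1562 to 1584 CPM in shNC and 1002 to 1022 CPM in shSTIL. Most of that sum was VIM, so its fall is no fall of the whole list. By the same threshold VIM and FN1 were lower (log2 fold changes of -0.68 and -1.19) and ZEB2 was higher (0.74). ZEB1 and CDH2 were not called. The summed level of 5 leukocyte and endothelial markers was 11.9 to 12.5 CPM in shNC and 14.0 to 15.7 CPM in shSTIL, and PTPRC and CD3E had no row. LYZ, PECAM1, VWF and CDH5 were each below 1 CPM, so most of that sum was CD68. The mean log2 CPM of CD68 was 3.51 in shNC and 3.75 in shSTIL, and none of the 5 was called at an adjusted p under 0.01.

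The UBE2 genes moved in both directions. At an adjusted p under 0.01, 11 of the 35 were lower and 11 were higher in shSTIL, and 13 were not called. Over all genes 23.6% were called lower and 23.5% higher, against 31.4% of the UBE2 genes in each direction. Among genes whose mean log2 CPM was 1 or more, which include 32 of the 35, the shares were 31.4% lower and 30.5% higher over all genes and 34.4% in each direction for the UBE2 genes, so the family as a whole lay close to the background. The median log2 fold change of the family was 0.03, with a range from -1.04 for UBE2T to 0.75 for UBE2H. The groups did not overlap for 12 members that were lower and 13 that were higher, where 30.5% and 29.9% of all genes had no overlap in these directions. All of these members were among the 32 with a mean log2 CPM of 1 or more. Of all 11319 genes at that level, 4363 were lower and 4206 higher without overlap, so the members lay close to this background too. UBE2C, UBE2S and UBE2T were all called lower, with a median log2 fold change of -0.31. Of the other 32 members, 8 were lower and 11 higher, with a median of 0.08. That median was 0.048 without shNC replicate 2 and 0.045 without shSTIL replicate 3.

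**Figure D1:**
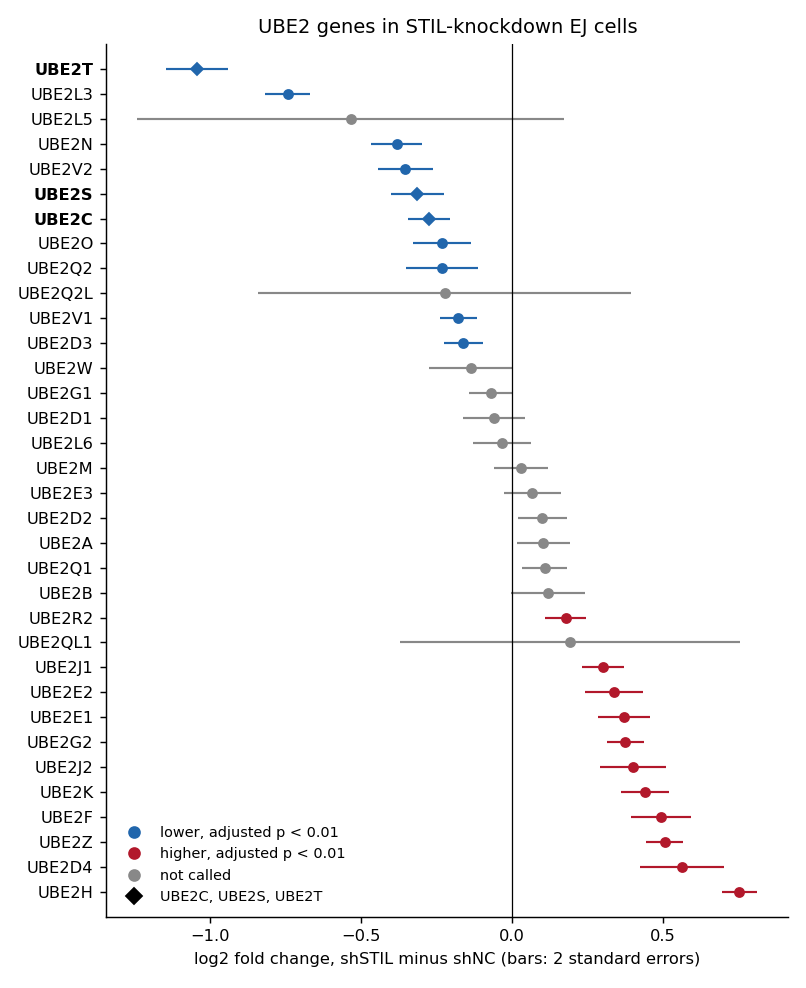
Log2 fold change (shSTIL minus shNC, horizontal axis) of the UBE2 genes described here, with bars of 2 standard errors from limma, blue for genes called lower, red for genes called higher and grey for genes not called. UBE2T at -1.04 and UBE2L3 at -0.74 lay lowest among the genes called, UBE2H at 0.75 lay highest, and the wide bars belong to UBE2L5, UBE2Q2L and UBE2QL1, which had 4 reads or fewer in every library.

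The promoters of UBE2T, UBE2S and UBE2F are shown because these genes hold the motifs of interest or belong to the mitotic and repair members. Genes of the late cell cycle often carry a CHR element together with CCAAT boxes near the start site, and genes of S phase often carry an E2F site. The searched letters were TTTGAA or TTCGAA for the CHR, CCAAT for the CCAAT box, and TTTCCCGC or TTTGGCGC for E2F, on both strands, each motif counted apart from the others. Each sequence runs 5′ to 3′ on the strand of the gene, from 250 bases before to 50 bases after the start, as given by RefSeq for GRCh38.p14, and capitals mark CHR and CCAAT matches.
UBE2T, chr1:202341887-202342186, minus strand: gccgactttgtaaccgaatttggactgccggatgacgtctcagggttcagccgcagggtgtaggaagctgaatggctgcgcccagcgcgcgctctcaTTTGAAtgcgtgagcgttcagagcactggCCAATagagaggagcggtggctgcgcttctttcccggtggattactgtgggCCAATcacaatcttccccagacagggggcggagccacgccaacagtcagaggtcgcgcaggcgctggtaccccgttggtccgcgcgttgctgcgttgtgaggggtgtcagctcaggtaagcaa
UBE2S, chr19:55407739-55408038, minus strand: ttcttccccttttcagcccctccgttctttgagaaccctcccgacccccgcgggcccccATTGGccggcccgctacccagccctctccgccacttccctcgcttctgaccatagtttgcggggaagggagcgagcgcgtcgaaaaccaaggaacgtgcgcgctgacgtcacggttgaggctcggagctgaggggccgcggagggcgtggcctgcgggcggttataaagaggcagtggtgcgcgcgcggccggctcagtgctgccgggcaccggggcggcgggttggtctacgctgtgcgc
UBE2F, chr2:237966764-237967063, plus strand: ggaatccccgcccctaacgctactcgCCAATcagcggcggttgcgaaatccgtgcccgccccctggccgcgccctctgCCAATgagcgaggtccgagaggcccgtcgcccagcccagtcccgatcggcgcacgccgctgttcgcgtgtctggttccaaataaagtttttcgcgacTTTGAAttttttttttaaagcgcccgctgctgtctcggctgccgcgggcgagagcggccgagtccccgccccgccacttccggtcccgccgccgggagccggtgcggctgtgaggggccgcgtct
Counted from the start of the transcript, with negative positions before it, the CHR of UBE2T began at -153 and its CCAAT matches at -124 and -73. UBE2S had no CHR match and 1 CCAAT match on the opposite strand, at -191. UBE2F, which was higher in shSTIL, had a CHR at -75 and CCAAT matches at -224 and -172. A promoter was found for 26 of the 35 members, with 38 promoters in all, and the members with no entry included UBE2B, UBE2C, UBE2H, UBE2L5, UBE2Q1, UBE2Q2L, UBE2V2 and UBE2W. The CHR was present in 2 of the 38 (5.26%), against 16.4% of all 35116 promoters and 12.4% of the 18288 promoters of genes in the log2 CPM table. A CCAAT match was present in 10 of them (26.3%), against 34.6% and 34.4%. No E2F match was present in the 38, and 2.27% and 3.01% of the larger sets held one. The E2F motif is the longest searched, and its absence says only that these letters are not in these windows.

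UBE2T was the member with the largest fall. UBE2T (ENSG00000077152.10, chr1:202331657-202341980, minus strand) passes ubiquitin to FANCD2 and FANCI together with the E3 ligase FANCL. Its log2 CPM was 6.03, 5.89 and 5.89 in shNC and 4.92, 4.85 and 4.92 in shSTIL. The shSTIL libraries were close together and far below every shNC library. The log2 fold change was -1.04 (SE 0.051, limma adjusted p = 1.7e-09), which left 48.5% of the control level. The libraries held 943 to 1049 reads of UBE2T in shNC and 495 to 516 in shSTIL. None of its transcript sequence was shared with another gene when cut into words of 50 bases.

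UBE2C and UBE2S, the pair of E2 enzymes of the APC/C, fell less. UBE2C (ENSG00000175063.16, chr20:45812576-45816957, plus strand) adds the first ubiquitins to mitotic substrates such as cyclin B. Its log2 CPM was 7.26, 7.28 and 7.26 in shNC and 6.93, 7.03 and 7.01 in shSTIL, with no overlap between the groups. The fall of UBE2C was a log2 fold change of -0.27 (SE 0.035, limma adjusted p = 1.6e-05), which left 82.7% of the control level. UBE2S (ENSG00000108106.13, chr19:55399745-55407777, minus strand) extends the chains that UBE2C begins. Its log2 CPM was 8.16, 7.97 and 8.04 in shNC and 7.70, 7.76 and 7.76 in shSTIL. The shNC libraries spread more widely than the shSTIL libraries, and every one was above them. UBE2S had a log2 fold change of -0.31 (SE 0.043, limma adjusted p = 3.2e-05), which left 80.5%. This call did not hold when shNC replicate 3 or any one of the 3 shSTIL replicates was left out, with log2 fold changes of -0.32 to -0.29 and limma adjusted p of 0.0112 to 0.0155. In the annotation, 15.9% of the words of UBE2S were shared with other genes, mostly with the pseudogene UBE2SP1, so part of its reads could have been assigned either way.

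The 3 genes were also compared with each other within each library. The difference UBE2T minus UBE2C on the log2 CPM scale was -1.33 ± 0.089 (SD, n = 3) in shNC and -2.09 ± 0.086 in shSTIL, a change of -0.77 (SE 0.071). The difference UBE2T minus UBE2S changed by -0.73 (SE 0.043). The difference UBE2C minus UBE2S changed by 0.04 (SE 0.062), and its values overlapped between the groups. The exact two-sided permutation p was 0.1 for each of the first 2 differences, the smallest that 3 libraries against 3 allow, and 0.7 for the last, and over the 18 pairs compared the adjusted values were 0.129 and 0.7. A list of 12 proliferation genes, among them MKI67, TOP2A and CDK1, fell as well. All 12 were called lower, where 23.6% of all genes and 31.4% of those with a mean log2 CPM of 1 or more were. Their median log2 fold change was -0.93, beside -1.04 for UBE2T, -0.31 for UBE2S and -0.27 for UBE2C. The 12 genes ranged widely, from -2.80 for CCNE2 to -0.27 for BIRC5, with CDK1 at -0.45. UBE2T, UBE2S and UBE2C all lay within that range. The summed level of the 12 genes was 3431 to 3535 CPM in shNC and 1780 to 1839 CPM in shSTIL. The part of these 12 genes in the fall of UBE2T, UBE2S and UBE2C was not tested. In bulk RNA, fewer cells of a kind and less RNA in each cell cannot be told apart.

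**Figure D2:**
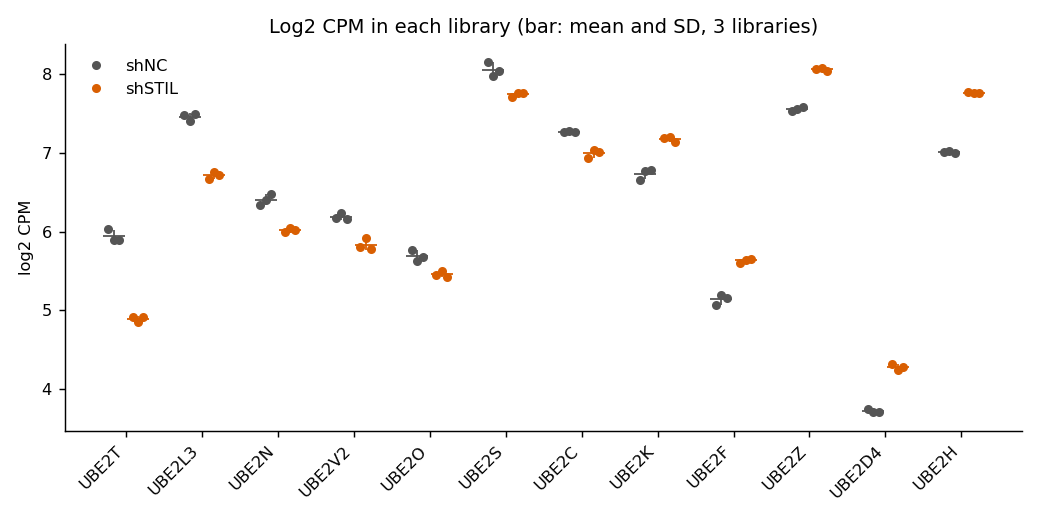
Log2 CPM (vertical axis) of UBE2C, UBE2S, UBE2T and 9 other members, as 1 point for each library, grey for shNC and orange for shSTIL, with the mean and SD of 3 libraries. The 9 were taken from the largest called rises and, ranked apart, the largest called falls, so some rises larger than the falls shown are left out. The groups are apart for every gene shown, by most for UBE2T and by least for UBE2O.

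Several E2 enzymes of other roles fell as well. UBE2L3 (ENSG00000185651.14), which charges HECT ligases and RBR ligases such as parkin and the linear chain assembly complex, had a log2 CPM of 7.47, 7.40 and 7.49 in shNC and 6.66, 6.76 and 6.72 in shSTIL. UBE2L3 had a log2 fold change of -0.74 (SE 0.037, limma adjusted p = 2e-09), the largest fall after UBE2T, and 59.7% of the control level was left. UBE2N, which builds the K63-linked chains of DNA damage tolerance and inflammatory signalling, had a log2 CPM of 6.33, 6.41 and 6.47 in shNC and 6.0, 6.05 and 6.02 in shSTIL. UBE2N had a log2 fold change of -0.38 (SE 0.043, limma adjusted p = 4.2e-06). UBE2V2, a partner of UBE2N without a catalytic cysteine, had a log2 CPM of 6.17, 6.23 and 6.16 in shNC and 5.80, 5.92 and 5.78 in shSTIL. UBE2V2 thus had a log2 fold change of -0.35 (SE 0.045, limma adjusted p = 1.6e-05).

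The other partner of UBE2N, UBE2V1, had a log2 fold change of -0.18 (SE 0.031, limma adjusted p = 0.00026), so UBE2N and both of its partners were called lower. The UBE2V1 call was lost without shSTIL replicate 3 (limma adjusted p = 0.0116) and without the mean-variance trend (limma adjusted p = 0.0135). Of the words of UBE2V1, 38.1% were shared with other genes, nearly all with the read-through gene PEDS1-UBE2V1, whose own log2 fold change was -0.37 (limma adjusted p = 8.6e-05), and the split of reads between them is uncertain. UBE2A and UBE2B, the RAD6 enzymes that mark PCNA together with RAD18, had log2 fold changes of 0.10 and 0.12 and were not called. Their intervals of 2 standard errors ran from 0.02 to 0.19 for UBE2A and up to 0.24 for UBE2B. Of the 5 genes of lesion bypass and K63-linked chains, 3 were thus lower and none higher, where 23.6% of all genes and 31.4% of those with a mean log2 CPM of 1 or more were lower.

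UBE2O, a large enzyme that combines E2 and E3 functions, had a log2 CPM of 5.77, 5.63 and 5.67 in shNC and 5.45, 5.50 and 5.43 in shSTIL. Its log2 fold change was -0.23 (SE 0.048, limma adjusted p = 0.00091), and the call was lost without shNC replicate 3 or any one of the shSTIL replicates (largest limma adjusted p = 0.0247). UBE2Q2 also fell by 0.23 on the log2 scale (limma adjusted p = 0.00433), a call that was lost in each left-out fit except that without shSTIL replicate 2, and with all libraries under DESeq2 (adjusted p = 0.016), median centring (limma adjusted p = 0.0145) and no mean-variance trend (limma adjusted p = 0.0198). UBE2D3 fell by 0.16 (limma adjusted p = 0.00063), and its call was lost without shNC replicate 2, shNC replicate 3 or shSTIL replicate 3 (largest limma adjusted p = 0.0139).

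The largest rise was that of UBE2H. UBE2H (ENSG00000186591.12, chr7:129830732-129952949, minus strand) works with the CTLH ligase, which is known for its role in red cell maturation and metabolism. Its log2 CPM was 7.01, 7.02 and 6.99 in shNC and 7.77, 7.76 and 7.76 in shSTIL. The spread within each group was small beside the gap between them. The log2 fold change was 0.75 (SE 0.03, limma adjusted p = 2.2e-10), and the shSTIL level was 169% of the control level.

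UBE2D4, a scarce relative of the broad chain-starting UBE2D enzymes, had a log2 CPM of 3.75, 3.71 and 3.71 in shNC and 4.32, 4.25 and 4.29 in shSTIL. Its log2 fold change was 0.56 (SE 0.07, limma adjusted p = 1.2e-05). UBE2Z, which is charged by the E1 enzyme UBA6, had a log2 CPM of 7.53, 7.56 and 7.58 in shNC and 8.07, 8.08 and 8.04 in shSTIL. UBE2Z rose, with a log2 fold change of 0.50 (SE 0.03, limma adjusted p = 9.9e-09). For both genes every shSTIL library was above every shNC library.

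UBE2F, an E2 of NEDD8 that acts on cullin 5, had a log2 CPM of 5.06, 5.20 and 5.16 in shNC and 5.60, 5.65 and 5.66 in shSTIL. Its log2 fold change was 0.49 (SE 0.049, limma adjusted p = 1.4e-06), and 13.6% of its words were shared, mostly with the read-through gene UBE2F-SCLY. UBE2M, the other NEDD8 enzyme, which acts on most cullins, had a log2 fold change of 0.03 and an interval of 2 standard errors from -0.06 to 0.12. UBE2K, which builds K48-linked chains, had a log2 CPM of 6.65, 6.77 and 6.78 in shNC and 7.18, 7.20 and 7.13 in shSTIL. UBE2K rose, with a log2 fold change of 0.44 (SE 0.04, limma adjusted p = 6e-07).

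All 3 E2 enzymes of endoplasmic reticulum quality control were called higher, where 23.5% of all genes and 30.5% of those with a mean log2 CPM of 1 or more were. UBE2J1 and UBE2J2 are anchored in the reticulum membrane, and UBE2G2 is recruited there, and together they help to clear misfolded proteins. The log2 fold change was 0.30 for UBE2J1 (limma adjusted p = 6.6e-06), 0.40 for UBE2J2 (limma adjusted p = 3.1e-05) and 0.38 for UBE2G2 (limma adjusted p = 2.1e-07). The call of UBE2J2 was lost without shNC replicate 3 or any one of the shSTIL replicates, with limma adjusted p of 0.0114 to 0.0177. Of the chain builders UBE2K, UBE2R2, UBE2G1 and UBE2H, 3 were higher. UBE2R2, a CDC34-like enzyme of the SCF ligases, rose by 0.18 (limma adjusted p = 0.00046), a call lost without shSTIL replicate 1 or 2 (largest limma adjusted p = 0.0135). UBE2G1, which extends chains for cullin 4 ligases, had a log2 fold change of -0.07 and was not called.

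The 8 broad initiators, which can work with many ligases, were mixed, with 1 lower (12.5%), 3 higher (37.5%) and 4 not called. Among all genes with a mean log2 CPM of 1 or more, 31.4% were lower and 30.5% higher, so such a mix is no trait of this group. UBE2E1 and UBE2E2 rose by 0.37 and 0.34 (limma adjusted p = 6.7e-06 and 3.9e-05), beside UBE2D4. UBE2E3, UBE2D1, UBE2D2 and UBE2W had log2 fold changes of 0.07, -0.06, 0.10 and -0.14 and were not called. The groups did not overlap for UBE2D2 (limma adjusted p = 0.0501). Among the enzymes of ubiquitin-like proteins, UBE2F and UBE2Z were higher, and UBE2M and UBE2L6 were not called. UBE2L6, the E2 of ISG15, had a log2 fold change of -0.03.

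The remaining genes were UBE2Q1, UBE2Q2L, UBE2QL1 and UBE2L5. UBE2Q1 had a log2 fold change of 0.11 with no overlap between the groups, and was not called (limma adjusted p = 0.0255). UBE2QL1 had 0 reads in every shNC library and at most 1 read in a shSTIL library, UBE2Q2L had at most 2 reads in a library and UBE2L5 at most 4. No change of these 3 genes was detectable at this depth.

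To compare genes with each other, the CPM was divided by the length in kilobases of the longest principal transcript of each gene. The ranks and shares below depend on that choice, for example on 850 bases for UBE2C and 2548 for UBE2S. Other transcripts were not tried, and the SD does not cover this. On this level scale UBE2C was highest in shNC at 178 ± 2.59 CPM per kilobase (SD, n = 3), next to UBE2V1 at 175 ± 3.08, and the libraries of these neighbours overlapped. UBE2D3 at 110 ± 1.55 and UBE2S at 103 ± 6.32 followed and also overlapped. UBE2T was 6th at 66.5 ± 3.61 and could not be told from UBE2E1 at 65.1 ± 4.2 and UBE2D2 at 64.3 ± 3.22 by their spread. In shSTIL UBE2T was 17th at 33.2 ± 0.768, between UBE2L3 at 35.2 ± 1.31 and UBE2J1 at 30.3 ± 0.566. UBE2Z went from 9th, at 59.4 ± 1.03, to 4th, at 86.9 ± 1.33, level with UBE2E1 at 86.7 ± 1.54. UBE2H was at 24.6 ± 0.378 in shNC and 42.7 ± 0.11 in shSTIL.

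The summed level of all 35 genes was 1480, 1476 and 1484 CPM per kilobase in shNC and 1460, 1505 and 1483 in shSTIL, and these values overlapped. Without division by length, the summed CPM was 3538, 3529 and 3554 in shNC and 3644, 3753 and 3678 in shSTIL, higher by 4.3% with no overlap. Of the sum in CPM per kilobase, UBE2C, UBE2S and UBE2T together made up 24.1%, 23.3% and 23.1% in shNC and 17.9%, 18.3% and 18.4% in shSTIL. UBE2T alone went from 4.49% ± 0.24 to 2.24% ± 0.082 of this sum per kilobase, and UBE2L3 from 3.86% ± 0.089 to 2.37% ± 0.052. UBE2Z went from 4.01% ± 0.069 to 5.86% ± 0.086, and UBE2H from 1.66% ± 0.03 to 2.88% ± 0.041.

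**Figure D3:**
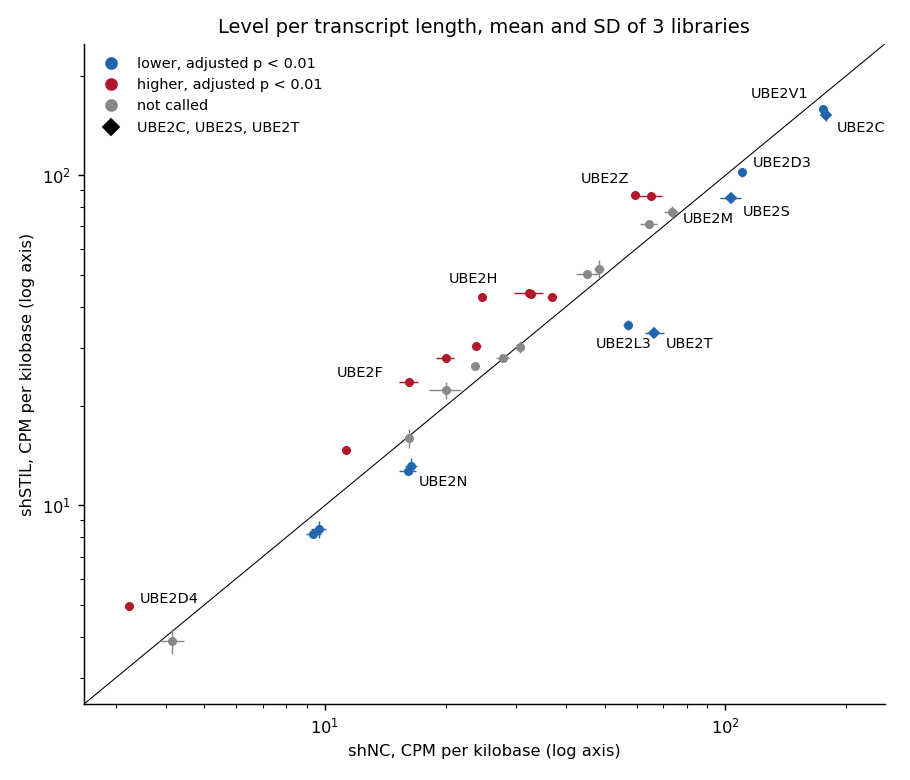
Level in shNC (horizontal log axis) against level in shSTIL (vertical log axis) in CPM per kilobase, as the mean and SD of 3 libraries, for the UBE2 genes described here with a mean above 1, coloured by call, with a line of equal level. UBE2T and UBE2L3 lie farthest below the line, at 66.5 against 33.2 and at 57.1 against 35.2, and UBE2H lies farthest above it, at 24.6 against 42.7.

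The partners of these enzymes were counted by list. Of 15 genes of the Fanconi anemia pathway around UBE2T, 9 were called lower, none higher and 6 were not called. FANCA, a core complex subunit, fell by 1.33 on the log2 scale (limma adjusted p = 1.5e-11), and FANCL, the E3 ligase for which UBE2T is the E2, fell by 0.72 (limma adjusted p = 2.2e-06). FANCD2 and FANCI, the substrates, fell by 0.81 and 0.79. Of 18 APC/C subunits, regulators and substrates around UBE2C and UBE2S, 9 were lower, 4 higher and 5 not called. PTTG1, the securin that the APC/C destroys, and CDC20, its mitotic activator, fell by 0.77 and 0.63, while the subunits ANAPC13 and ANAPC16 rose by 0.75 and 0.54.

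Of 12 partners of the lesion bypass enzymes, 3 were lower and 4 higher. PCNA, the sliding clamp and itself a proliferation gene, fell by 1.47, and RNF20, a ligase for histone H2B, fell by 0.85. TRAF2 and TRAF6, ligases of inflammatory signalling, rose by 0.56 and 0.32. Of 16 partners for NEDD8, SUMO and ISG15, 3 were lower, 3 higher (18.8% each, below the shares of all genes) and 10 not called. RBX1, the RING subunit of most cullin ligases, fell by 0.98 and HERC5, an ISG15 ligase, by 0.61. TRIM25 rose by 0.63 and RANGAP1, a SUMO target at the nuclear pore, by 0.58. Of 15 RBR, endoplasmic reticulum and other ligases, 4 were lower (26.7%) and 8 higher (53.3%). BIRC2 and ARIH2 rose by 0.96 and 0.49, whereas MDM2, the ligase of p53, fell by 0.93.

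Upstream of the E2 step, 4 of 10 E1 enzymes were lower and 3 higher. UBA1, the main E1 of ubiquitin, and SAE1, a subunit of the SUMO E1, both fell by 0.90. MOCS3 fell by 0.42, and UBA7, the E1 of ISG15, rose by 0.70 at a low level (limma adjusted p = 0.0054). Of 18 genes for ubiquitin and its relatives, 9 were lower and 5 higher. SUMO2 fell by 0.85 and ISG15 by 0.95, while UFM1 rose by 0.94 and MAP1LC3B, an autophagosome marker, by 1.10. Of the 8 E2 genes and E2 variants with other names, 2 were lower and 5 higher. UEVLD and ATG10 fell by 0.87 and 0.79, and AKTIP and TSG101 rose by 0.49 and 0.40. These counts are to be read against the shares of all genes, 23.6% lower and 23.5% higher, and against those of genes with a mean log2 CPM of 1 or more, 31.4% lower and 30.5% higher, since nearly all partner genes were at that level.

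**Figure D4:**
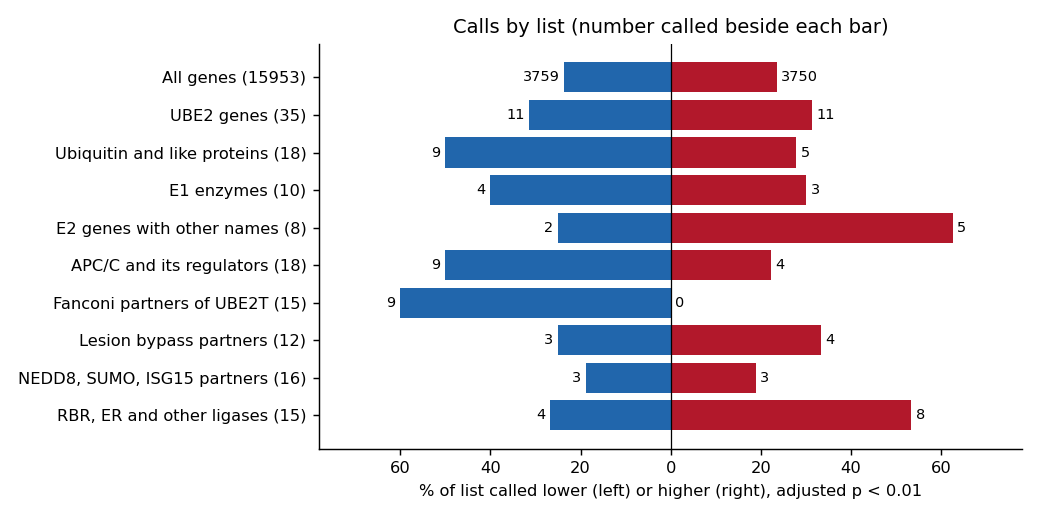
Share of each list called lower (blue, to the left) or higher (red, to the right) at a limma adjusted p under 0.01, in percent of the list's genes in the table, whose number is in brackets, with the number called beside each bar. The Fanconi list has 9 of 15 genes lower and none higher, while the UBE2 genes have 11 of 35 in each direction, close to the balance of all genes.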

How the data were processed

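RNA of EJ cells was sequenced in 6 libraries, 3 shNC and 3 shSTIL, grouped by the sample titles (column headings name siRNA instead). Reads of the BGISEQ-500 were cleaned by the authors (SOAPnuke) and mapped (Bowtie2), and RSEM gave an estimated count for each gene. The submitters' processing notes name hg38; tool versions and the annotation are not given in the sources used here. The deposited estimated counts (4 libraries, 15957 genes) are not normalized. The deposited log2 CPM values (6 libraries, 15953 genes) were computed by the authors with edgeR. The pseudocount understates changes of scarce genes.

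From the log2 CPM of all genes, limma 3.58.1 (lmFit, eBayes with trend, R 4.3.3) was fitted without a replicate block, with Benjamini-Hochberg adjustment and calls at an adjusted p under 0.01. Exact two-sided permutation tests used all 20 labellings (smallest p 0.1). Reads were recovered from the spacing of the log2 values (87.5% to 87.8% whole; within 0.0327 reads of the deposited counts), and rounded for edgeR 4.0.16 and DESeq2 1.42.0 as alternatives. The fits were run on simulated data with few changed genes and a fixed spread between libraries. That run checks the code and not the calls made here. CPM per kilobase used recovered reads and GENCODE 29 (GRCh38), as did gene positions and shared words of 50 bases. RSEM divides reads among alike transcripts, so paralogs are uncertain.

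Members with every library's value were UBE2C, UBE2S, UBE2T and the 5 largest called rises and falls of the others without overlap. Each partner list gives up to 4 called genes of largest change whose mean log2 CPM was 1 or more. Some genes that these rules name are not reported here, though the counts include them. PEDS1-UBE2V1 was added after values were seen. The members and lists were chosen with earlier results of these data known. Alternatives covered the trend, scaling, low-value filter, pseudocount, test, threshold, block and each library left out.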

Additional observations from a re-analysis of the deposited data

How the results depend on the processing

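STIL kept its direction and call in all 16 alternatives, with log2 fold changes from -2.01 to -1.95. Of the 22 called UBE2 genes, 15 kept direction and call in each of 16 alternatives that set no minimum fold change, UBE2T, UBE2C, UBE2L3 and UBE2H among them. The number of UBE2 genes called lower, 11, was 7 without the mean-variance trend, 1 when an absolute log2 fold change above 1 was also required and 6 to 10 with 1 library left out, where it was 7 without shNC replicate 3 and 6 without shSTIL replicate 3. The number called higher, 11, was 0 with that fold requirement, 13 with each library centred on its median and 9 to 11 with 1 library left out. Calls over all 15953 genes, in both directions together, also moved with the setting. They numbered 7509 in the main fit, 5855 without the trend, 7614 under median centring and 4900 to 5638 with 1 library left out. Calls over all genes were not counted with the fold requirement. Without the trend, UBE2D3, UBE2O, UBE2Q2, UBE2V1 and UBE2R2 lost their calls. Left-out fits have fewer samples; the cause of the other losses was not tested. With the replicate block 11 were lower and 11 higher, and the block changed none of the 22 calls. Same-numbered libraries did not deviate together (correlations from -0.12 to -0.055) and share only a number. The median of UBE2C, UBE2S and UBE2T was -0.271 under median centring and -0.357 to -0.279 with 1 library left out. The median of the other members, 0.0835, was 0.126 under median centring and 0.045 to 0.0923 with 1 library left out. Directions reversed in members that were not called: UBE2M ran from -0.0111 to 0.0636 and UBE2Q2L from -0.453 to 0.0343 with 1 library left out, and UBE2L6 was 0.00998 under median centring. Depth limits UBE2QL1, UBE2Q2L and UBE2L5, with 4 reads or fewer.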

Other observations

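Paralogs of one letter were compared within libraries in 14 pairs, together with UBE2F and UBE2M, as differences of log2 CPM. The UBE2D genes, which encode closely related broad initiators, differed in their fold changes, and the difference UBE2D4 minus UBE2D3 changed by 0.72 (standard error 0.051) between shNC and shSTIL, and UBE2D4 minus UBE2D2 by 0.46 (standard error 0.056). UBE2G2 minus UBE2G1 changed by 0.45 (standard error 0.032), UBE2L6 minus UBE2L3 by 0.71 (standard error 0.049) and UBE2F minus UBE2M by 0.46 (standard error 0.087). In each of these pairs the shNC and shSTIL values were fully apart, and the exact two-sided permutation p was 0.1, the smallest possible (adjusted over all 18 pairs, 0.129).

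The membrane-anchored pair UBE2J1 and UBE2J2 rose together, and UBE2J2 minus UBE2J1 changed by 0.10 (standard error 0.083, exact permutation p = 0.3). UBE2E2 minus UBE2E1 changed by -0.03 (standard error 0.055, exact permutation p = 0.6), whereas UBE2E3 minus UBE2E1 changed by -0.30 (standard error 0.068, exact permutation p = 0.1). UBE2V2 minus UBE2V1 changed by -0.18 (standard error 0.069, exact permutation p = 0.2), with overlap between the groups.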
